A study of Mus with 2 samples.

Results

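The 4 Notch receptor genes of the mouse, Notch1, Notch2, Notch3 and Notch4, were followed across the cell classes of the newborn kidney. They were taken by symbol from the 28693 features of the count matrices, and each symbol named 1 feature. The tissue was whole kidney at postnatal day 0 (P0) from mice of the genotype Rbpj c/- ; Foxd1cre/+, so that 1 Rbpj allele was floxed, the other was null, and Cre was driven by Foxd1, a gene of the stromal progenitors of the kidney. Both libraries carried this genotype, and control kidneys (Rbpj c/+ ; Foxd1cre/+), which the study also lists, were not analysed here, so every comparison below is between cell classes within mutant kidneys. The labels give no sex and do not say whether a library came from 1 animal or several, and the feature list also holds an EYFP reporter that the labels do not describe.

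Notch receptors are single-pass membrane proteins that are activated by Delta-like and Jagged ligands on a neighbouring cell. Ligand binding exposes the receptor to cleavage by Adam10 and then by gamma-secretase, and the released intracellular part enters the nucleus, where it binds Rbpj and Mastermind-like proteins and turns on genes of the Hes and Hey families. In the kidney, Notch2 is known for its part in the formation of proximal nephron segments and podocytes, Notch1 and Notch4 are known from endothelium, and Notch3 is known from the smooth muscle cells and pericytes around vessels. Rbpj is shared by all 4 receptors.

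Replicate 1 held 163405630 UMIs (unique molecular identifiers, each a counted RNA molecule) and replicate 2 held 135436576. After the limits of at least 2000 UMIs and at most 10% mitochondrial UMIs, and after removal of 310 and 212 presumed doublets, 5910 and 4937 barcodes were kept, with median depths of 11716.5 and 12196 UMIs. Of the barcodes of at least 2000 UMIs, 8 were found in both libraries. Cells were assigned to a class by how many marker genes of a class they held, the receptors and the other Notch pathway genes having no part in this, and classes carry the ending -like. The classes of at least 20 cells in each library were nephron progenitor-like (937 and 967 cells), early nephron-like (730 and 701), podocyte-like (470 and 334), proximal tubule-like (332 and 254), loop of Henle-like (118 and 104), ureteric epithelium-like (123 and 95), endothelial-like (704 and 475), stroma-like (1211 and 1005), mural-like (87 and 75), immune-like (201 and 121) and erythroid-like (158 and 132). Podocyte-like cells held a median of 8 of their 8 markers and 0 of the endothelial, mural and immune lists, with 2 of the 8 stromal markers, 1 early nephron marker and 1 ureteric epithelium marker. The mural-like class is the least secure: 129 of its 162 cells held just the 5 markers required, its cells held a median of 6 of the 8 stromal markers, and 98 of them fell in clusters named stroma-like. Distal tubule-like cells numbered only 13 and 10 and enter no test.

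Levels are given in CPM, the UMIs of a gene over all UMIs of its class in a library on the usual per-million scale, with the mean ± SD of the 2 libraries. Over all kept cells, Notch1 had 8072 and 6269 UMIs, Notch2 had 2844 and 2402, Notch3 had 1420 and 1020, and Notch4 had 1233 and 782. All 4 receptors were among the 15163 genes tested. The p-values measure only the spread between the 2 libraries that remains once their overall difference is taken out, pooled over the classes. The origin of the libraries in separate animals is not stated, so this spread may be technical.

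The targeted gene, Rbpj (ENSMUSG00000039191, chromosome 5, 53555779 to 53657445, GRCm38.p6), was counted in every class. It was at 25.9 CPM in replicate 1 and 24.9 CPM in replicate 2 of stroma-like cells, a mean of 25.4 ± 0.74 (SD, n = 2). Only erythroid-like cells, with 1 UMI in each library, were lower. The other 9 classes lay between 31.0 CPM in proximal tubule-like cells and 172 CPM in immune-like cells, including 61.0 ± 2.91 CPM in nephron progenitor-like, 55.6 ± 3.12 CPM in podocyte-like, 45.5 ± 6.78 CPM in mural-like and 42.8 ± 1.46 CPM in endothelial-like cells (SD, n = 2). Foxd1 itself was at 90.9 ± 5.08 CPM in stroma-like, 223 ± 12.4 CPM in podocyte-like, 37.1 ± 9.24 CPM in mural-like cells, and nephron progenitor-like cells had 28.1 ± 1.44 CPM (SD, n = 2). A 3′ count does not show whether a transcript holds every exon, so the Rbpj level does not show how much working transcript was left in any class.

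Notch1 (ENSMUSG00000026923) lies on chromosome 2 at 26457902 to 26503822 of GRCm38.p6. It was highest in endothelial-like cells, at 166 CPM in replicate 1 and 164 CPM in replicate 2 (165 ± 1.51, SD, n = 2). Early nephron-like cells came next, at 123 and 118 CPM, below the endothelial-like values and above all others in both libraries. A middle group was formed by ureteric epithelium-like cells at 70.1 and 86.5 CPM, cells of the loop of Henle-like class at 67.4 and 75.2 CPM, proximal tubule-like cells at 52.1 and 64.6 CPM and immune-like cells at 61.3 and 46.9 CPM. Within this group the libraries of the ureteric and loop classes overlapped, as did those of the proximal tubule and immune classes. Stroma-like cells were at 36.6 CPM in both libraries, mural-like cells at 38.7 and 28.0 CPM and podocyte-like cells at 32.6 and 31.1 CPM. Stroma-like cells were above podocyte-like cells in both libraries, mural-like cells overlapped both, and nephron progenitor-like cells, at 20.8 and 24.9 CPM, were below all 3. Erythroid-like cells had 2 UMIs in each library, which is 1.74 and 2.42 CPM.

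Against the mean of the other lineages, Notch1 was higher in endothelial-like cells by a log2 fold change of 1.88 ± 0.09 (SE), with adjusted p = 1.1e-13 from edgeR's quasi-likelihood test after Benjamini-Hochberg adjustment, as in all adjusted values below. All 4 receptors passed the threshold of 0.05 in this comparison, Notch1 and Notch4 higher and Notch2 and Notch3 lower, where 44.5% of all genes tested passed it. In the other lineages set against the mean of the rest, the share of genes that passed was 45.7% for early nephron-like, 50.3% for nephron progenitor-like, 46.4% for proximal tubule-like, 45.4% for stroma-like, 43.8% for immune-like, 38.6% for both loop of Henle-like and ureteric epithelium-like and 25.5% for mural-like cells. Of the 10 lineages, Notch1 was higher in 4 (endothelial-like, early nephron-like, ureteric epithelium-like and loop of Henle-like) and lower in 4 (nephron progenitor-like, podocyte-like, stroma-like and mural-like). The loop of Henle-like call was lost without the erythroid-like sums, where the log2 fold change was 0.25 (adjusted p = 0.059, same edgeR test), and under the stricter gate, at 0.38 (adjusted p = 0.052, same edgeR test). The ureteric epithelium-like call was lost under the stricter gate as well, at 0.29 (adjusted p = 0.13, same edgeR test).

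**Figure D1:**
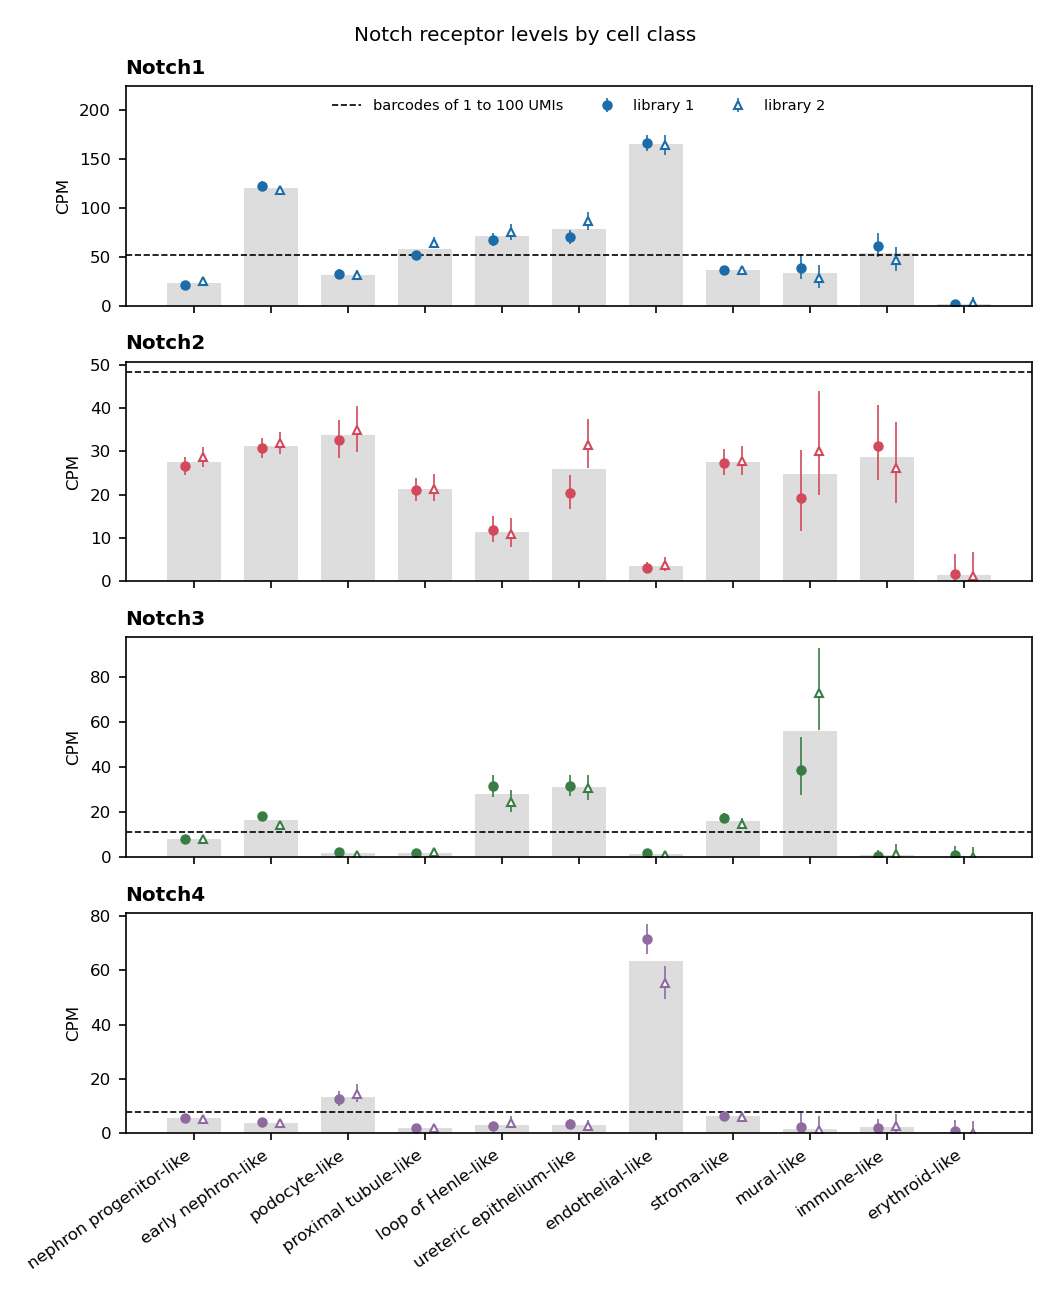
Levels of Notch1, Notch2, Notch3 and Notch4 (CPM, linear axes) in 11 cell classes. Filled circles are replicate 1 and open triangles replicate 2, with exact 95% Poisson intervals for counting error only; grey bars are their means, and the dashed line is the mean level in barcodes of 1 to 100 UMIs. Notch1 and Notch4 peak in endothelial-like cells (means of 165 and 63.4 CPM), Notch3 in mural-like cells (55.7 CPM), and Notch2 stays between 21.3 and 33.7 CPM in 8 of the 11 classes.

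Notch2 (ENSMUSG00000027878; chromosome 3, 98013538 to 98150367) lay between 19.3 and 34.9 CPM in 8 of the 11 classes. It was at 32.6 CPM in replicate 1 and 34.9 CPM in replicate 2 of podocyte-like cells (33.7 ± 1.58, SD, n = 2). Early nephron-like cells followed at 30.8 and 31.9 CPM, and the lower of the podocyte-like values exceeded the higher of theirs by less than 1 CPM. From there down, each class overlapped the next: immune-like cells at 31.2 and 26.2 CPM, stroma-like at 27.4 and 27.8 CPM, nephron progenitor-like at 26.5 and 28.6 CPM, ureteric epithelium-like at 20.4 and 31.5 CPM, mural-like at 19.3 and 30.2 CPM and proximal tubule-like at 21.1 and 21.4 CPM. Only 3 classes were set apart below. Loop of Henle-like cells were at 11.8 and 10.9 CPM, endothelial-like cells at 3.10 and 3.87 CPM, and erythroid-like cells at 1.74 and 1.21 CPM.

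The low endothelial value was the largest departure of Notch2 from the mean of the rest among the 10 lineages. Endothelial-like cells had 28 and 24 Notch2 UMIs, with exact Poisson intervals of 2.06 to 4.49 CPM and 2.48 to 5.76 CPM. Against the mean of the other lineages the log2 fold change was -2.75 ± 0.28 (SE; adjusted p = 2.9e-08, edgeR's quasi-likelihood test). Notch2 was higher than the mean of the rest in 5 lineages (early nephron-like, podocyte-like, nephron progenitor-like, stroma-like and immune-like), by 0.51 to 0.79 on the log2 scale, and lower in 2, the other being loop of Henle-like cells at -1.01 ± 0.19 (SE). The nephron progenitor-like call was lost under a mitochondrial limit of 5%, at 0.0094.

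Whether Notch2 RNA differs between the progenitor pool and its descendants was asked directly, since Notch2 acts early in nephron formation. Podocyte-like cells were above nephron progenitor-like cells in both libraries, but by a log2 fold change of only 0.12 ± 0.12 (SE; adjusted p = 0.43, edgeR's quasi-likelihood test). Early nephron-like cells differed from progenitor-like cells by 0.05 ± 0.11 (SE; adjusted p = 0.72, same edgeR test). Of the 4 receptors, Notch3 (-2.33 ± 0.33) and Notch4 (1.11 ± 0.17) passed in podocyte-like against progenitor-like cells. Notch2 passed in neither comparison, while 59.1% and 47.1% of all genes tested did in these comparisons. Under the mitochondrial limit of 5%, which kept 4578 cells, 42.2% of the main number, both passed, at 0.67 (adjusted p = 8.3e-04 by edgeR) and at 0.50 (adjusted p = 0.012 by edgeR).

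Notch3 (ENSMUSG00000038146; chromosome 17, 32120820 to 32166896) was highest in mural, ureteric and distal nephron classes. In mural-like cells it was at 38.7 CPM in replicate 1 and 72.7 CPM in replicate 2 (55.7 ± 24.0, SD, n = 2), from 38 and 65 UMIs with exact Poisson intervals of 27.4 to 53.1 CPM and 56.1 to 92.6 CPM. The 2 libraries thus differ beyond counting error, while both lie above every other class. Ureteric epithelium-like cells, at 31.4 and 30.4 CPM, overlapped loop of Henle-like cells, at 31.4 and 24.6 CPM. Early nephron-like cells, at 18.2 and 14.3 CPM, overlapped stroma-like cells, at 17.2 and 14.7 CPM, and nephron progenitor-like cells were lower at 7.87 and 8.09 CPM. Proximal tubule-like, podocyte-like, endothelial-like and immune-like cells lay between 0.567 and 2.24 CPM, each overlapping the next in order. Against the mean of the other lineages, ureteric epithelium-like cells were higher by 2.17 ± 0.19 and loop of Henle-like cells by 2.04 ± 0.19 (SE; adjusted p = 2.9e-09 and 1.3e-08, edgeR's quasi-likelihood test), and without replicate 1 these were 3.05 and 2.72.

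Stroma-like cells were compared with all lineages other than themselves and the mural-like class. Those lineages include podocyte-like cells, where Foxd1, the gene that drives Cre, was higher than in stroma-like cells, and Cre activity was not measured. Notch3 was higher in stroma-like cells by a log2 fold change of 1.60 ± 0.19 (SE; adjusted p = 5.0e-07, edgeR's quasi-likelihood test), and was 2.52 and 1.59 without replicate 1 and without replicate 2. Erythroid-like cells, which enter the mean of the other lineages, held 0 Notch3 and 0 Notch4 UMIs in replicate 2 and 1 of each in replicate 1. Without their sums the value was 1.65. In this comparison 3 of the 4 receptors passed, where 47.7% of genes did: Notch2 was also higher, by 0.55 ± 0.12 (SE), and Notch1 was lower, at -0.62 ± 0.16 (SE). Notch3 was then compared within the perivascular and interstitial compartment, where mural-like cells exceeded stroma-like cells by 1.77 ± 0.24 (SE; adjusted p = 2.7e-05, same edgeR test). It was the only receptor of the 4 called there, beside 10.3% of all genes. Notch4 had -1.93 ± 0.65 (SE; adjusted p = 0.065, same edgeR test), from 3 UMIs in all in mural-like cells, and passed with no library block and with no doublet removal.

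The size of the mural value depended on how the class was drawn and on 1 library. It was 2.25 without replicate 1 and 1.19 without replicate 2. The cluster named mural-like, of 60 cells, had Notch3 at 81.4 and 123 CPM (102 ± 29.7, SD, n = 2) and Notch1 at 16 ± 4.21 CPM, against 33.3 ± 7.59 CPM of Notch1 in the gated class. With clusters in place of the gate, the log2 fold change of Notch3 against stroma-like cells was 2.69 (adjusted p = 7.8e-07, edgeR's quasi-likelihood test). Under a gate that required 1 more marker, too few mural-like cells were left for a test.

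Notch4 (ENSMUSG00000015468; chromosome 17, 34564286 to 34588543) was an endothelial gene with a lower second level in podocyte-like cells. It was at 71.5 CPM in replicate 1 and 55.3 CPM in replicate 2 of endothelial-like cells (63.4 ± 11.5, SD, n = 2). Podocyte-like cells were at 12.4 and 14.5 CPM, from 83 and 73 UMIs, below endothelial-like cells and above every other class in both libraries. Stroma-like cells, at 6.10 and 6.07 CPM, nephron progenitor-like cells, at 5.63 and 5.26 CPM, and early nephron-like cells, at 3.96 and 3.69 CPM, followed in an order that both libraries kept. The remaining classes were at 3.72 CPM or less, and loop of Henle-like cells overlapped both early nephron-like and ureteric epithelium-like cells.

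Endothelial-like cells exceeded the mean of the other lineages in Notch4 by a log2 fold change of 4.14 ± 0.11 (SE; adjusted p = 2.7e-18, edgeR's quasi-likelihood test). Podocyte-like cells exceeded the mean of the rest by 1.46 ± 0.19 (SE; adjusted p = 1.2e-06, same edgeR test), by 2.51 without replicate 1, by 1.24 without replicate 2 and by 1.56 without the erythroid-like sums. All 4 receptors passed in the podocyte-like comparison, Notch2 and Notch4 higher and Notch1 and Notch3 lower, where 44.6% of genes did. Notch4 was lower than the mean of the rest in 3 lineages (loop of Henle-like, ureteric epithelium-like and proximal tubule-like), but its calls were the least stable of the 4 receptors. The 3 lower calls were lost, with the sign kept, under 3, 4 and 3 alternatives in that order. The sign turned under 2 alternatives for loop of Henle-like cells and under 1 for ureteric epithelium-like cells. Without the erythroid-like sums Notch4 was higher in 3 lineages and lower in 5. Podocyte-like cells held a median of 0 endothelial markers of 9, and whether RNA from endothelial cells adds to their Notch4 was not tested.

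Free RNA sets a limit on the low values. Barcodes of 1 to 100 UMIs, which hold mostly RNA from the suspension, had Notch1 at 52.8 and 51.7 CPM, Notch2 at 52.0 and 44.5 CPM, Notch3 at 11.9 and 10.8 CPM and Notch4 at 9.37 and 6.09 CPM. The Notch2 level in free RNA was thus above that of each of the 11 lineages. In both libraries free Notch4 was above every lineage other than endothelial-like and podocyte-like cells. Free Notch3 was above nephron progenitor-like, proximal tubule-like, podocyte-like, endothelial-like, immune-like and erythroid-like cells. Free Notch1 was above stroma-like, mural-like, podocyte-like, nephron progenitor-like and erythroid-like cells. How much free RNA adds to the levels of these classes was not tested. Erythroid-like cells, which should lack the receptors, had 4 Notch1 UMIs in all, or 11.4 and 14.2 CPM with globin left out of the total, globin making up 84.7% and 83.0% of their UMIs.

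The share of cells with a receptor UMI was compared at equal depth, after each cell was thinned at random to 5000 UMIs and shallower cells were left out. A Notch1 UMI was then found in 45.9 ± 2.85% of endothelial-like cells, 39.2 ± 2.52% of early nephron-like cells, 15.8 ± 1.61% of stroma-like cells, 9.04 ± 1.92% of nephron progenitor-like cells and 7.74 ± 0.43% of podocyte-like cells (SD, n = 2). The same share was 0.93 ± 0.21% of erythroid-like cells, at which a receptor would be read as background. Notch2 was found in 17.3 ± 1.03% of podocyte-like, 14 ± 0.22% of early nephron-like, 13 ± 0.44% of nephron progenitor-like and 1.74 ± 0.46% of endothelial-like cells, against 1.32 ± 0.34% of erythroid-like cells (SD, n = 2). Unthinned, the Notch2 shares were 4.16 ± 0.66% of endothelial-like and 1.01 ± 0.36% of erythroid-like cells (SD, n = 2). The depth of erythroid-like cells is mostly globin, so the shares of the 2 classes are not at equal depth in other genes. Notch3 was found in 18 ± 5.52% of mural-like, 15.2 ± 2.89% of ureteric epithelium-like and 7.58 ± 0.15% of stroma-like cells (SD, n = 2). At 10000 UMIs the Notch3 shares were 18.8 and 18.2% of mural-like, 30 and 22% of ureteric epithelium-like, 22.2 and 15.4% of loop of Henle-like and 12.5% of stroma-like cells in both libraries, so the mural-like class did not come first at both depths. At 5000 UMIs Notch4 was found in 21.8 ± 3.07% of endothelial-like and 5.13 ± 1.83% of podocyte-like cells (SD, n = 2). No erythroid-like cell of 128 and 93 held a Notch3 or Notch4 UMI at this depth, which by the limit of 3 counts allows shares of cells with a UMI of up to 2.34% and 3.23%, and by the exact binomial interval up to 2.84% and 3.89%. Unthinned, the Notch1 share was 65.4 ± 1.35% of endothelial-like and 1.39 ± 0.18% of erythroid-like cells, at median depths of 8307.5 and 8869 UMIs in the first class and 7489 and 6283.5 UMIs in the second.

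Notch1 was uneven among podocyte-like cells. The class level was 31.8 ± 1.08 CPM (SD, n = 2), while the mean over its cells, each weighted equally, was 17.7 CPM. The share of cells with a Notch1 UMI overlapped that of nephron progenitor-like cells at both depths: at 10000 UMIs it was 15.1 and 24.4% of podocyte-like and 16.5 and 17.8% of nephron progenitor-like cells. Of the cells clustered without the gate, 2 clusters were named podocyte-like, and 794 of their cells were in the gated class. A podocyte-like cluster of 695 cells, with the early nephron gene Pax8 in 25.1% of cells, had Notch1 at 11.8 CPM in both libraries. A cluster of 332 cells, also named podocyte-like, with Pax8 in 75.6% of cells, had Notch1 at 56.6 and 91.3 CPM. Notch2 was at 28.3 and 32.0 CPM in the first and at 43.3 and 49.0 CPM in the second, so the clusters did not overlap for either receptor. These cluster values are a description, with no test, since the clusters were drawn from the expression of these same cells, although the receptors and the pathway list were left out of the clustering. Against nephron progenitor-like cells, podocyte-like Notch1 differed by 0.32 ± 0.14 (SE; adjusted p = 0.062, edgeR's quasi-likelihood test), it passed under 6 of the 10 alternatives that gave a test, and its sign turned under the stricter gate, to -0.19.

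The make-up of the receptor UMIs differed between classes. UMIs are counted at transcript ends and do not scale with gene length, but genes can differ in capture, so the shares below are compared across classes for the same receptor. Notch1 took 70.9 ± 3.30% of the 4 receptors' UMIs in endothelial-like cells, 70.1 ± 0.30% in early nephron-like and 69.8 ± 2.86% in proximal tubule-like cells, but 35.7 ± 2.13% in nephron progenitor-like and 39.5 ± 1.92% in podocyte-like cells (SD, n = 2). Notch2 took 43.2 ± 0.56% in nephron progenitor-like and 41.8 ± 1.34% in podocyte-like cells, against 18.2 ± 1.06% in early nephron-like and 1.5 ± 0.32% in endothelial-like cells (SD, n = 2). The mean shares of progenitor-like and podocyte-like cells thus lay within 4 percentage points of each other for Notch1 and Notch2, though their libraries did not overlap, and both lay apart from early nephron-like cells. The other receptors differed more: Notch3 took 12.5 ± 0.59% in the first and 2.13 ± 0.96% in the second, and Notch4 took 8.56 ± 0.98% and 16.6 ± 1.54% (SD, n = 2). In mural-like cells Notch3 took 47.1 ± 11.2%, and in endothelial-like cells Notch4 took 27.1 ± 3.40% (SD, n = 2).

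**Figure D2:**
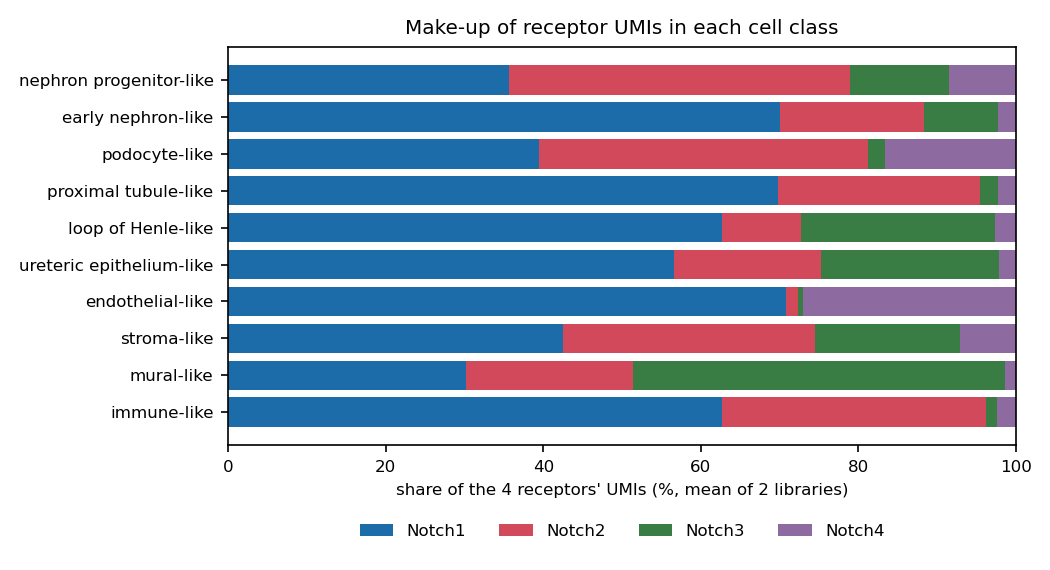
Share of the 4 receptors' UMIs taken by each receptor (%, mean of 2 libraries) in 10 cell classes, as stacked bars. Notch1 takes about 70% in endothelial-like (70.9%), early nephron-like (70.1%) and proximal tubule-like cells (69.8%), and Notch3 takes 47.1% in mural-like cells.

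Both endothelial receptors were often seen in the same cell. At 10000 UMIs, 30.7% of 274 endothelial-like cells of replicate 1 and 33.0% of 209 of replicate 2 held a UMI of both Notch1 and Notch4, where the product of the separate shares is 24.7% and 28.0%. In early nephron-like cells at the same depth, 18.3% of 656 and 17.1% of 667 cells held both Notch1 and Notch2, where the product is 16.3% and 14.8%. Cells of 1 library are not replicates, and these shares are given as a description.

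Along the nephron lineage, Notch1 was low in progenitors, high in the renal vesicle class and lower in the proximal and distal precursors, the tubule classes and late podocytes. Nephron progenitor-like cells were at 22.8 ± 2.88 CPM, cells that passed both the progenitor and the early nephron gate at 83.2 ± 2.30 CPM, and renal vesicle cells, a subclass of the early nephron-like cells, at 144 ± 2.44 CPM (SD, n = 2). The 3 did not overlap. Proximal precursors, at 97.5 and 106 CPM, and distal precursors, at 101 and 88.7 CPM, overlapped each other below the renal vesicle, and proximal tubule-like cells lay lower at 52.1 and 64.6 CPM. Early nephron-like cells exceeded progenitor-like cells by a log2 fold change of 2.27 ± 0.12 (SE; adjusted p = 7.0e-13, edgeR's quasi-likelihood test). In that comparison 3 of the 4 receptors passed, beside 47.1% of all genes: Notch3 was higher by 0.89 ± 0.16 (SE) and Notch4 lower, at -0.64 ± 0.17 (SE), and neither passed under the mitochondrial limit of 5%, at 0.57 and -0.49, with adjusted p-values of 0.079 and 0.23 by the same test.

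Distal and proximal precursors did not overlap in Notch2 or Notch3, and the difference between the 2 was not tested directly. Distal precursors had Notch3 at 31.8 and 26.5 CPM, against 14.8 and 8.35 CPM in the renal vesicle and 7.84 and 6.27 CPM in proximal precursors, with no overlap between the distal values and the rest. Against the renal vesicle, Notch3 was higher in distal precursors by 1.30 ± 0.19 (SE; adjusted p = 2.8e-06, edgeR's quasi-likelihood test), and Notch2 was lower, at -1.07 ± 0.13 (SE; adjusted p = 1.2e-07 by edgeR). Notch2 was at 18.4 and 17.8 CPM there, against 36.3 and 38.7 CPM in the renal vesicle. Proximal precursors had Notch2 at 32.8 and 39.99 CPM, which overlaps the renal vesicle, and did not pass at -0.04 ± 0.13 (SE; adjusted p = 0.87, same edgeR test). Of the 4 receptors, 3 passed in distal precursors (Notch1 at -0.61 ± 0.12) and 2 in proximal precursors (Notch1 at -0.50 ± 0.13 and Notch4 at -1.41 ± 0.43), where 26.5% and 24.3% of genes did. Notch3 in proximal precursors had -0.71 ± 0.30 (SE; adjusted p = 0.082, same edgeR test) and passed with no count filter and under the stricter gate.

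**Figure D3:**
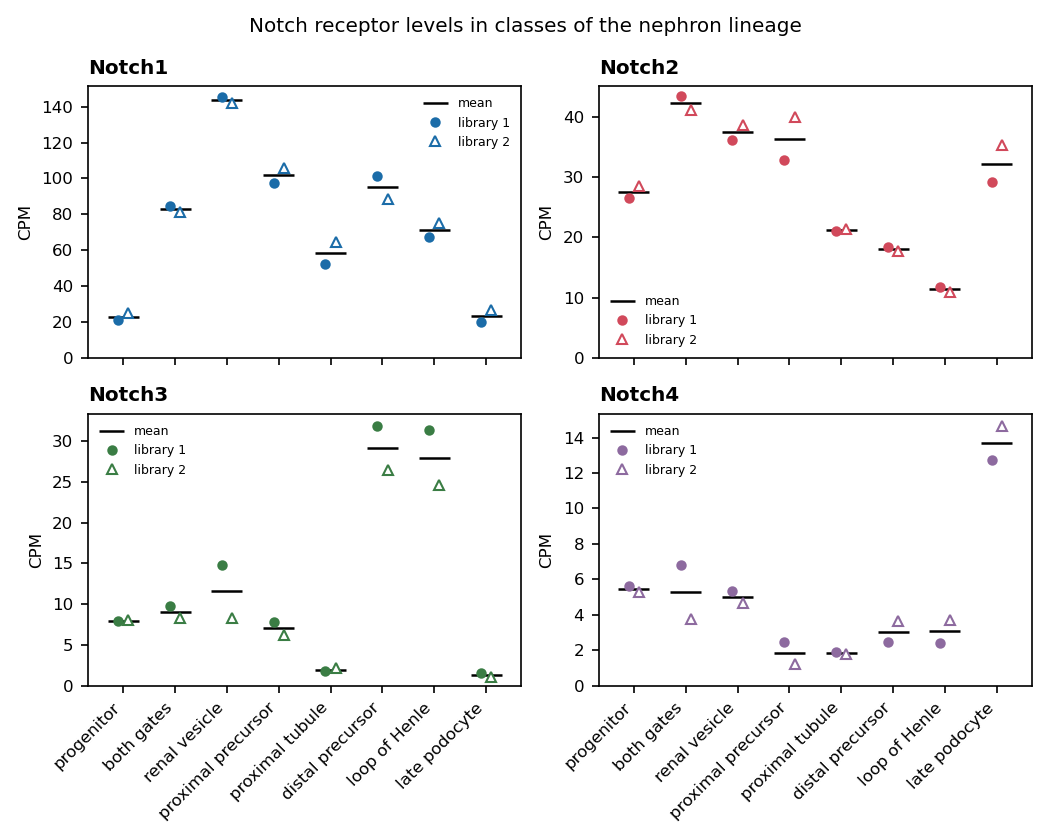
Levels of the 4 receptors (CPM, linear axes from 0) in 8 classes of the nephron lineage; circles are replicate 1, triangles replicate 2 and bars their mean. Of these 8, Notch1 is highest in the renal vesicle (144 CPM), Notch3 in distal precursors (29.2 CPM), next to 28.0 CPM in loop of Henle-like cells, and Notch4 in late podocytes (13.7 CPM).

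In the more mature segments, loop of Henle-like and proximal tubule-like cells were each set against early nephron-like cells, and the difference between the 2 was not tested. Loop of Henle-like cells had more Notch3 than early nephron-like cells, by 0.78 ± 0.17 (SE), and less Notch2, at -1.46 ± 0.16 (SE), with adjusted p-values of 6.8e-04 and 1.5e-07 by edgeR's quasi-likelihood test. The Notch3 call was lost under the stricter gate, at 0.21 (adjusted p = 0.35 by edgeR). Of the 222 loop of Henle-like cells, 98 held just the number of markers required, and the class held a median of 4 of its own 6 markers and 5 of the 12 early nephron markers. Proximal tubule-like cells had all 4 receptors lower than early nephron-like cells, Notch3 at -2.94 ± 0.24 (SE) and Notch1 at -0.90 ± 0.11 (SE). The share of genes that passed was 45.6% in the loop comparison, where 3 receptors did, and 55.9% in the proximal one. The proximal Notch2 call, at -0.40 ± 0.12 (SE), was lost with clusters, at -0.18, and under the mitochondrial limit of 5%, at -0.33, with adjusted p-values of 0.24 in both, and that of Notch4 was lost under the same limit, at -1.22 (adjusted p = 0.15 by edgeR). The 23 distal tubule-like cells had Notch3 at 25.1 and 33.2 CPM, and 18 of them held just the number of markers required. The cluster named distal tubule-like, of 192 cells, held all 23 beside 45 cells of the early nephron-like, 37 of the loop of Henle-like and 24 of the ureteric epithelium-like class, 30 of more than 1 gate and 32 of none. It had Notch3 at 32.3 ± 2.81 CPM, with Notch2 at 19.9 ± 2.26 CPM (SD, n = 2).

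Podocyte-like cells, the other outcome of the early nephron, had 3 receptors changed against early nephron-like cells, where 62.8% of all genes passed. Notch1 was lower, at 32.6 and 31.1 CPM against 123 and 118 CPM, by a log2 fold change of -1.95 ± 0.13 (SE; adjusted p = 2.9e-11, edgeR's quasi-likelihood test). Notch3 was lower, at -3.22 ± 0.30 (SE) and Notch4 higher by 1.75 ± 0.18 (SE), with adjusted p-values of 4.5e-09 and 3.1e-08. Notch2 did not pass, at 0.07 ± 0.12 (SE; adjusted p = 0.65, same edgeR test). Late podocytes, a subclass of 444 and 324 cells, were at 20.02 and 26.6 CPM of Notch1 and 29.2 and 35.3 CPM of Notch2. The early podocyte subclass had only 7 and 3 cells and was not tested. Its Notch1 level was 165 and 129 CPM, from 67 and 10 UMIs, which overlaps the renal vesicle values. Of these 10 cells, 9 held just the number of markers required, and their median depths were 61263 and 19974 UMIs, against 7300.5 and 8107 in late podocytes. Another 19 and 7 podocyte-like cells, which fell in neither subclass, had 36 and 18 Notch1 UMIs, or 67.6 and 137 CPM.

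In the ureteric lineage, collecting duct cells, of which there were 104 and 72, had Notch1 at 64.7 and 84.4 CPM, Notch2 at 22.2 and 33.4 CPM, Notch3 at 31.9 and 33.1 CPM and Notch4 at 2.92 and 2.20 CPM. The ureteric tip subclass held 18 and 20 cells, so the 2 were not compared.

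Endothelial subclasses differed in both endothelial receptors. Arterial cells had Notch1 at 231 and 264 CPM and Notch4 at 134 and 82.2 CPM. Cells of the capillary plexus had 125 and 113 CPM of Notch1 and 39.6 and 33.0 CPM of Notch4, below the arterial values in each library and with no overlap. Arterial cells were higher by 0.94 ± 0.14 (SE) in Notch1 and by 1.46 ± 0.22 (SE) in Notch4, with adjusted p-values of 4.0e-06 and 9.1e-06 by edgeR's quasi-likelihood test. These were the 2 receptors called of 4, where 17.3% of all genes passed. Glomerular endothelium, of 87 and 41 cells, was at 223 and 175 CPM of Notch1 and 104 and 81.2 CPM of Notch4, above the plexus values of both receptors in both libraries; its lower Notch4 value lies just under that of arterial cells.

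No receptor difference passed between stromal subclasses. Medullary, mesangial and interstitial stroma were each compared with cortical stroma, and 0 of the 4 receptors passed in any of the 3 by edgeR's quasi-likelihood test, where 10.7%, 6.25% and 13.8% of genes did. At an unadjusted p under 0.05 there were 0 as well, the smallest being 0.067 for Notch2 in interstitial stroma, and DESeq2 called 0 too. Cortical stroma had Notch3 at 14.2 and 10.9 CPM, medullary stroma at 24.3 and 21.8 CPM, from 7 and 6 UMIs, and the log2 fold change was 0.78 ± 0.60 (SE). The medullary subclass held 27 and 25 cells.

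**Figure D4:**
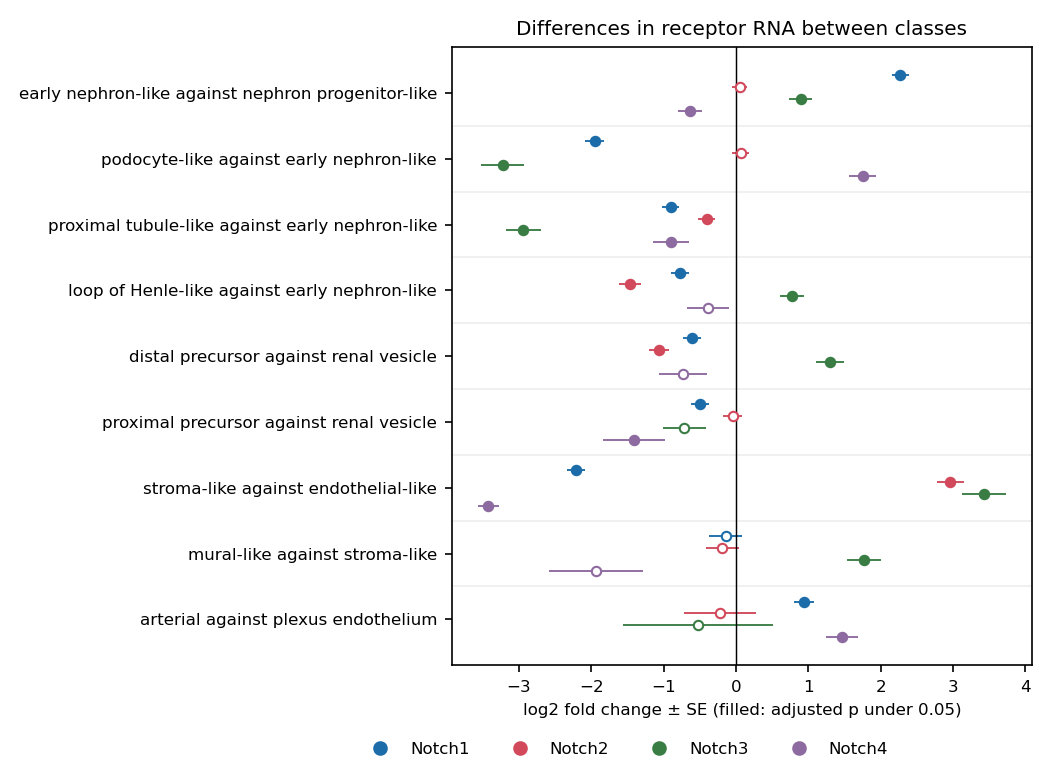
Log2 fold change ± SE of each receptor in 9 comparisons between classes, from edgeR; filled points have an adjusted p under 0.05. Stroma-like against endothelial-like cells show the widest spread of the 9, from -3.42 for Notch4 to 3.43 for Notch3, and Notch2 lies near 0 in early nephron-like against progenitor-like and in podocyte-like against early nephron-like cells.

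All 4 receptors differed between stroma-like and endothelial-like cells. Notch2 (27.4 and 27.8 CPM against 3.10 and 3.87 CPM) and Notch3 (17.2 and 14.7 CPM against 1.77 and 0.967 CPM) were higher in stroma-like cells, by 2.97 ± 0.19 and 3.43 ± 0.30 (SE). Notch1 and Notch4 were lower, at -2.21 ± 0.12 and -3.42 ± 0.14 (SE). All 4 had adjusted p-values of 2.5e-09 or less by edgeR's quasi-likelihood test, where 51.2% of all genes passed.

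The other genes of the pathway were followed as a list of 45 genes for ligands, their endocytosis, glycosylation, proteases, receptor turnover, the nuclear complex and targets, of which 44 were tested. In early nephron-like against nephron progenitor-like cells, 28 passed, 16 higher and 12 lower, where 25.5% of all genes tested were higher and 21.7% lower. The median log2 fold change was 0.02 over the list and -0.0041 over all genes tested. The receptors' ligands Dll1 and Jag1 and all 6 targets of the list (Hes1, Hes5, Hey1, Hey2, Heyl and Nrarp) were among the higher genes, while Rbpj itself was lower, with -0.46 ± 0.09 (SE). Under the mitochondrial limit of 5%, which kept 42.2% of the cells, 18 of the 44 passed, and the share of all genes that passed fell with it, to 31.9%.

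Hes5, a transcriptional repressor turned on by Notch, had 54.1 and 51.1 CPM in early nephron-like cells and 0.220 and 0.202 CPM, from 9 UMIs in all, in progenitor-like cells. The ratio of the levels was 249, with a counting interval of 131 to 545. The ligand Dll1 was at 88.3 and 81.9 CPM against 2.07 and 1.11 CPM, a log2 fold change of 5.58 ± 0.17 (SE). The ligand Jag1 was at 163 and 155 CPM against 8.93 and 5.46 CPM, by 4.34 ± 0.15 (SE), and Nrarp, a target that limits Notch signalling, at 61.0 and 59.5 CPM against 1.85 and 0.961 CPM, by 5.25 ± 0.22 (SE). None of the 4 overlapped between the classes, and their adjusted p-values by edgeR's quasi-likelihood test were 4.6e-13 or less.

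In podocyte-like against early nephron-like cells, 32 of the 44 passed, 15 higher and 17 lower, where 28.7% of all genes were higher and 34.1% lower, with a median of -0.02 over the list and -0.11 over all genes. Hes5 was at 0.598 and 0.396 CPM, from 6 UMIs, in podocyte-like cells, lower by a ratio of 103 with a counting interval of 47.3 to 281. Nrarp, at 5.24 and 4.95 CPM, was lower, at -3.60 ± 0.23 (SE), and Dll1, at 5.53 and 9.50 CPM, had -3.59 ± 0.17 (SE). Dtx1, of the Deltex family of ubiquitin ligases that act on Notch, had 6 UMIs in podocyte-like cells and 263 in early nephron-like cells, a ratio of 11.9 with a counting interval of 5.39 to 32.7. Among the higher genes were Adam10, by 0.75 ± 0.13 (SE), Aph1a and Ncstn of the gamma-secretase complex, by 1.16 ± 0.09 and 0.77 ± 0.10 (SE), and Maml3, a Mastermind-like coactivator, by 1.53 ± 0.09 (SE). Other members of the same families were lower, Aph1c at -2.90 ± 0.46 and Maml2 at -1.51 ± 0.18 (SE).

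In stroma-like against endothelial-like cells, 32 of the 44 passed, 9 higher and 23 lower, where 25.4% of all genes were higher and 25.8% lower, with a median of -0.41 over the list and 0.01 over all genes. Mfng, the Manic fringe enzyme that adds sugars to Notch receptors, had 2 UMIs in stroma-like cells and 1272 in endothelial-like cells, a ratio of 933 with a counting interval of 258 to 7714. The ligand Dll4 had 59.2 and 47.4 CPM in endothelial-like cells and 5 UMIs in all in stroma-like cells, a ratio of 243 (104 to 750). Jag2, another ligand, had 26.8 and 22.1 CPM in endothelial-like cells and 4 UMIs in stroma-like cells, a ratio of 139 (53.9 to 513). Nrarp had 48.4 and 48.7 CPM against 0.562 and 0.708 CPM, lower in stroma-like cells, at -6.28 ± 0.31 (SE). Of the ligands, 4 of the 4 tested were lower in stroma-like cells, and of the 6 targets, 4 were lower, Heyl was higher by 2.87 ± 0.52 (SE) and Hey2 did not pass.

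**Figure D5:**
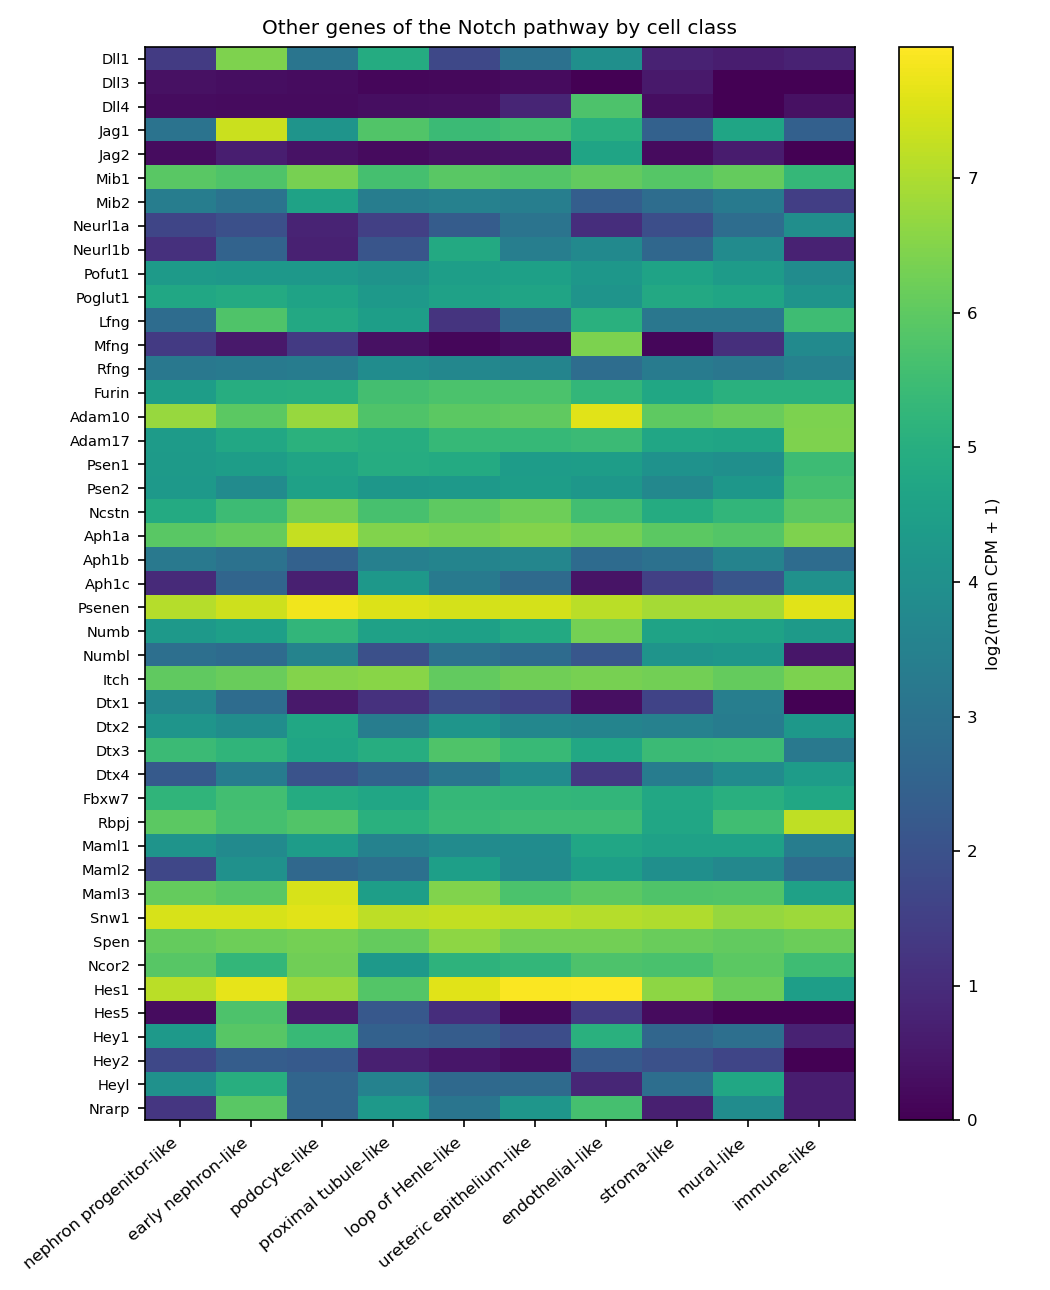
Mean level of the 45 other Notch pathway genes, as log2(mean CPM + 1), in 10 cell classes, ordered by role from ligands at the top to targets at the bottom. The bright cells of Dll1, Jag1 and Hes5 in the early nephron-like column (85.1, 159 and 52.6 CPM) and of Dll4 and Mfng in the endothelial-like column (53.3 and 83.1 CPM) stand apart from the nephron progenitor-like and stroma-like columns.

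For each receptor, the 5 genes whose lineage means followed it most closely were listed, from Pearson's r of log2(CPM + 1) over 11 lineages among 12263 genes. The lineages share 2 libraries, and globin takes most UMIs of the erythroid-like class, so these values are a description. For Notch1 they were Hras, Cyb5b, Ier2, Fam110a and Plekha1 (r of 0.960 to 0.946), and for Notch2 they included Akt2, Mettl21a, Nme4 and 6330418K02Rik (0.909 to 0.901). For Notch3 they were Zfp575, Bmpr1b, Tubb4a, Nfatc4 and Dpyd (0.977 to 0.919), of which Zfp575, Tubb4a and Nfatc4 were highest in mural-like cells. For Notch4 they were Vash1, Kank3, Bvht, Cldn15 and Tmem88 (0.964 to 0.906), and all 5 were highest in endothelial-like cells, as Notch4 was. Between the receptors, r ran from -0.19 for Notch3 and Notch4 to 0.54 for Notch1 and Notch4.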

How the data were processed

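RNA of 2 mutant newborn kidney samples was read with 10x 3′ chemistry, and the authors deposited unfiltered matrices of UMI counts per gene and barcode. The submitters' processing notes name Cell Ranger 6.0.1 and the build mm10. Gene positions come from a RefSeq table of GRCm38.p6.

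Barcodes of at least 2000 UMIs and at most 10% mitochondrial UMIs were kept, and the highest Scrublet scores (scanpy 1.11.5, expected rate 6%) were removed at 0.8% per 1000 cells. A barcode, thinned to at most 10000 UMIs, entered a class when it held at least the number of markers set for that list, 2 to 5. UMIs were summed per library and class and tested with edgeR 4.0.16 (TMM, filterByExpr, quasi-likelihood test, library as a block, Benjamini-Hochberg over all genes, threshold 0.05); 15163 genes were tested between lineages and 14918 between subclasses. On simulated data for stroma-like against endothelial-like cells (15163 genes), 66 of 84 genes changed by 1 on the log2 scale were recovered. Of those changed by 2, 106 of 116 were recovered, with 12 calls among 13998 unchanged genes left by the count filter. For arterial against plexus endothelium (14918 genes) these were 47 of 95 and 81 of 105, with 8 calls among 13685. The simulated classes shared 1 mean profile and 1 dispersion, with no library effect and only 200 changed genes. In the real stroma-like against endothelial-like comparison 51.2% of genes passed, so these counts do not give the error rate of the real comparisons. Poisson and binomial intervals are exact at 95% and cover counting error only; the counting interval of a ratio is an exact conditional one over both libraries.

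Named pathway genes are, in each of 3 comparisons, the 4 of largest fold change that passed, moved the same way in both libraries and had at least 20 UMIs in 1 class; others were named after their values were seen, and 1 gene that the rule for likeness to Notch2 gave is not reported here. The members and lists were chosen with earlier results of these data known. Subclasses needed 2 markers and a lead over the next list. Alternatives tried were RLE size factors, DESeq2 1.42.0, no count filter, no library block, each library left out, at least 5000 UMIs, a mitochondrial limit of 5%, no doublet removal, Leiden clusters and a stricter gate; leaving out the erythroid-like sums was added after seeing the data. Cell Ranger's aligner settings are not given in the sources used here.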

Additional observations from a re-analysis of the deposited data

Results flagged for a closer look

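Receptor UMIs were also present in barcodes that entered no comparison, above the level that a count of 0 allows. In the 563 and 468 barcodes that passed no gate, Notch1 was at 39.4 CPM, Notch2 at 24.4 CPM, Notch3 at 9.16 CPM and Notch4 at 2.85 CPM (means of 2 libraries); their median depths were 4404 and 4487 UMIs, and globin made up over 10% of the UMIs in 320 and 227 of them. In the 163 and 110 barcodes that passed more than 1 gate, the progenitor and early nephron pair not counted, Notch1 was at 71.1 CPM, Notch2 at 25.5 CPM, Notch3 at 13.1 CPM and Notch4 at 19.96 CPM. The Notch4 level in the second set lies above that of podocyte-like cells and below that of endothelial-like cells.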

How the results depend on the processing

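Of the 94 alternatives run for the 8 main receptor comparisons, none was marked as turning the direction. For the 2 Notch2 comparisons that did not pass, the sign was not checked in the runs with 1 library left out. With clusters, Notch3 in mural-like against stroma-like cells was 2.69 and Notch4 in endothelial-like cells 4.85. Leaving out 1 library, which leaves no test, gave a range of 4.23 to 4.80 for Notch4 in endothelial-like cells, 1.59 to 2.52 for Notch3 in stroma-like cells, 1.19 to 2.25 for Notch3 in mural-like against stroma-like cells and 2.10 to 2.44 for Notch1 in early nephron-like against progenitor-like cells. The mitochondrial limit of 5% moved Notch2 past the threshold in podocyte-like (0.67) and early nephron-like (0.50) against progenitor-like cells and lowered the count of pathway genes in the latter to 18 of 44, where 31.9% of all genes passed against 47.1% in the reported fit; the cause was not tested. The labels give no replicate numbers, so the library block stands for the shared library; with no replicate block, the 3 pathway counts were 24, 30 and 31, where 38.9%, 58.8% and 46.9% of all genes passed, and the 8 main comparisons stayed on the same side of the threshold.

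Of 974 alternatives of the 88 other receptor contrasts, 31 turned the sign, 13 of them with 1 library left out, of which 12 were of values that had not passed. Of the rest, for Notch4 against the mean of the other lineages these were early nephron-like cells (0.40 at 5000 UMIs, 0.43 with clusters, 0.19 with the stricter gate), loop of Henle-like (-1.31 to 0.37 with 1 library left out, 0.14 with clusters), mural-like (0.17 with clusters) and ureteric epithelium-like cells (0.11 with the stricter gate). Under the mitochondrial limit of 5% they were Notch4 in progenitor-like (-0.37) and stroma-like cells (-0.11, also with mural-like cells left out), Notch3 in proximal tubule-like cells (0.28), Notch2 and Notch3 in arterial against plexus endothelium (0.11 and 0.016) and Notch4 in mesangial against cortical stroma (0.071, and 0.0031 with the stricter gate). The rest were Notch3 in progenitor-like cells with clusters (-0.21), Notch1 and Notch2 in mural-like against stroma-like cells (0.024 with no doublet removal and 0.20 with clusters) and Notch1 in podocyte-like against progenitor-like cells (-0.19 with the stricter gate). Contrasts of erythroid-like cells rest on at most 4 UMIs and are not reported. Collecting duct against ureteric tip, late against early podocyte and distal tubule-like contrasts were not run, for lack of cells, nor were mural-like contrasts with the stricter gate and at the 5% limit.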
